A study of Mus musculus with 4 samples.

Results

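The Gnas locus lies on chromosome 2 of the mouse and is 1 of the imprinted regions of the genome. The cytosines described here were all CpG cytosines of this locus with 10 or more reads in each of 4 mouse livers, counted on each strand separately. There were 434 such cytosines at 318 CpGs, out of 1276684 common cytosines in the whole genome. They ran from position 174284177 to position 174345375 of the mm10 build, a span of 61198 bp. A further set of cytosines was covered in only some of the mice, and 512 were covered in at least 1.

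DNA methylation was measured by enhanced reduced representation bisulfite sequencing (ERRBS), in which DNA is cut, here with MspI (CCGG) per the labels, treated with bisulfite and sequenced, so that methylated cytosines are read as C and unmethylated ones as T. The livers came from 4 male mice between 6 and 8 weeks old on a normal diet, each mouse being 1 library. Values are given in the order of the mouse numbers, 1 before 2. Mixed-1 and Mixed-2 had an undefined background that included C57BL/6J and other strains, and B6-1 and B6-2 were C57BL/6 mice. The Mixed and B6 mice were kept at different institutions and the B6 libraries were deeper, with a mean coverage of 63.7 and 60.1 against 44.2 and 49.0 reads per cytosine, so that strain, housing and depth cannot be told apart. Coverage summed over the cytosines of the locus was 19605 and 19873 in the Mixed mice and 29391 and 28470 in the B6 mice. In these sums a read counts once for each cytosine it covers. Whole liver is a mixture of cell types, and the method counts 5-hydroxymethylcytosine together with 5-methylcytosine. The start windows of Alb, Apoa1 and Ahsg held no common cytosines, so the tissue label could not be checked from these liver genes. Those of Fgb and Hnf4a averaged 30% and 30.9% methylation, against 2.17% at Sox2, a gene of stem cells.

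Gnas encodes Gs alpha, the subunit that couples hormone receptors to adenylyl cyclase. The locus has several alternative first exons that splice onto shared downstream exons. Nesp gives the secretory protein NESP55 from the maternal allele and is methylated on the paternal one. Gnasxl, which gives the extra-large protein XL alpha s, the antisense transcript Nespas (Gnasas1) and the noncoding exon 1A transcript come from the paternal allele, and their starts are methylated on the maternal one. Exon 1, the start of Gs alpha itself, lies in an unmethylated CpG island and is used on both alleles in most tissues. A start methylated on 1 parental allele gives an intermediate percentage in a mixture of both alleles. The files hold no information on parental origin, so alleles were not separated.

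Starts were placed by the curated RefSeq transcripts of the GRCm38 (mm10) genome. Nesp starts at 174284320, Nespas at 174295436 on the opposite strand, Gnasxl at 174297859, exon 1A at 174327749 and exon 1 at 174330006. Regions reached 1000 bp to each side of a start, and the windows of Nespas and Gnasxl were joined. A stretch of 150 bp with the most common cytosines and no untranslated exon sequence is shown for each region. These stretches hold only part of the cytosines on which the levels of the regions rest. The sequences are the plus strand, 5′ to 3′, from RefSeq, and capitals mark the CpGs that had a common cytosine.
Nesp, chr2:174284703-174284852: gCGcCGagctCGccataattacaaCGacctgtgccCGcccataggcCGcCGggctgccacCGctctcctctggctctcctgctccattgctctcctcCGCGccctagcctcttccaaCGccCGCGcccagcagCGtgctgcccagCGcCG
Upstream of Gnasxl, chr2:174297282-174297431: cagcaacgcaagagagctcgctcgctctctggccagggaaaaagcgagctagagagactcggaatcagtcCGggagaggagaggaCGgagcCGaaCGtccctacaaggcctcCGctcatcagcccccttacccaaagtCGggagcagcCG
Exon 1A, chr2:174327942-174328091: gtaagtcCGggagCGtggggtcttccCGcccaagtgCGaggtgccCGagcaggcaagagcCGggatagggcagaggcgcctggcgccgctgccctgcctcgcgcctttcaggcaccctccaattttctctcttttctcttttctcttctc
Exon 1, chr2:174330442-174330591: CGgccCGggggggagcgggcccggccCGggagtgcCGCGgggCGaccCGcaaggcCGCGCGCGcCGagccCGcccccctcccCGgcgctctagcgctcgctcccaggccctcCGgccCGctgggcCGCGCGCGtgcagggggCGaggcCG
The Nesp stretch lies in the coding part of the Nesp transcript and held 23 common cytosines with a mean of 40.4% ± 2.69 (SD, n = 4 mice). The stretch upstream of Gnasxl is outside annotated exons and its 8 cytosines averaged 42.9% ± 5.40. The exon 1A stretch is the start of the intron that follows this exon, and its 11 cytosines averaged 49.5% ± 6.18. The exon 1 stretch lies in the first intron of Gs alpha, and its 41 cytosines averaged 0.166% ± 0.0957.

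Among the common cytosines, intermediate methylation was the rule from Nesp to Gnasxl and again over exon 1A, while exon 1 was unmethylated. No common cytosine lay between 174287816 and 174295489, so the level there is not known. The 5 cytosines covered in the long intron between Gnasxl and exon 1A had means above 80%. Of the 434 cytosines, 252 (58.1%) had a mean over the mice between 20% and 80%, while this held for 11.7% of all common cytosines. Another 169 were below 20%, of which 167 were those of exon 1, and 13 were above 80%. The 4 start regions held 303 of the cytosines and 131 lay outside them. Neighbouring cytosines are read on the same molecules, so they are not independent measurements, and the unit of comparison below is the mouse.

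**Figure D1:**
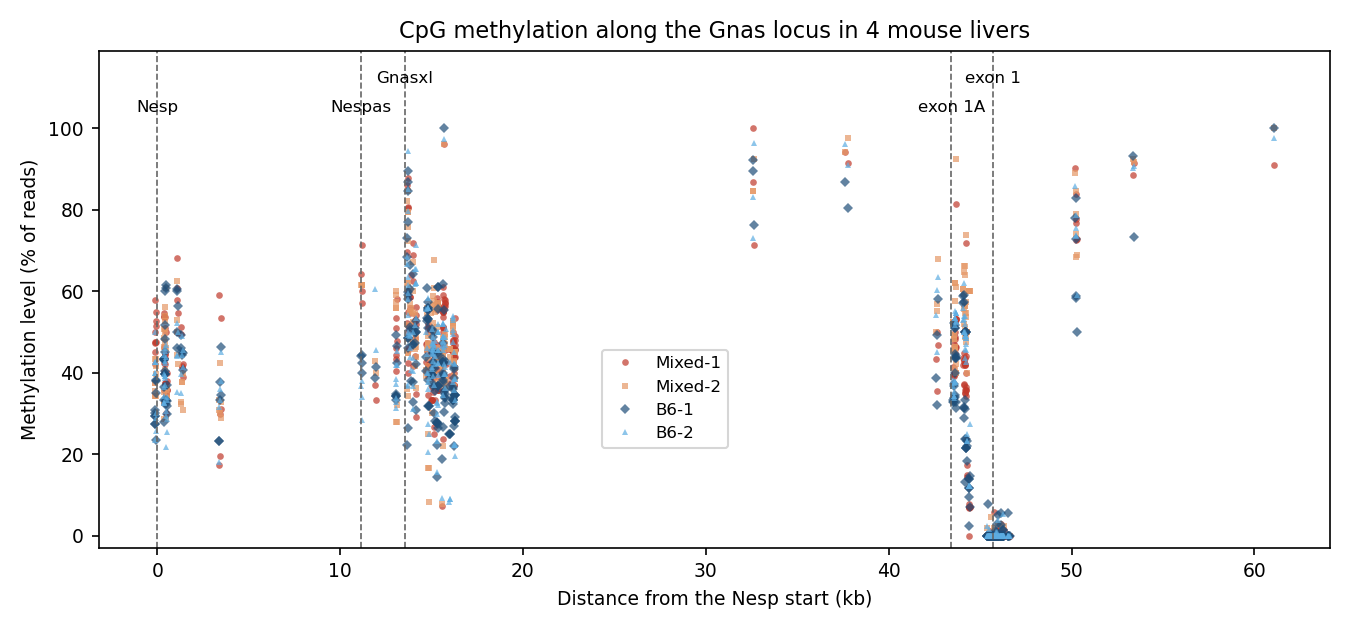
Methylation level (% of reads) of each of the 434 common cytosines in each mouse, against the distance from the Nesp start in kb. Dashed lines mark the 5 starts, and colours and shapes mark the mice. Levels mostly scatter around 40% to 50% from Nesp to Gnasxl and at exon 1A, and lie near 0 at exon 1. They exceed 70% at most of the few sites in the intron between Gnasxl and exon 1A and beyond exon 1.

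Over Nesp, where 34 cytosines at 25 of 108 CpGs were measured, the mean level was 44.6% and 40.7% in the Mixed mice and 38.2% and 36.5% in the B6 mice. All 34 cytosines lay between 20% and 80% in every mouse, and their means over the mice ran from 29.7% to 54.0%. The first 10 of them, upstream of the start, averaged 38.8% and the other 24, within the transcript, 40.5%. Both Mixed mice were above both B6 mice over the region. The lowest cytosine was at 174284803 on the minus strand, with 30% and 33.8% in the Mixed mice and 33.3% and 21.7% in the B6 mice. The highest was its partner on the plus strand at 174284802, with 50.0% and 60.7% against 61.5% and 43.9%. The median cytosine, at 174284707, was at 46.3% and 32.4% against 43.3% and 36.5%. The CpG at 174284802 thus had the lowest and the highest mean of the region on its 2 strands. The largest strain difference was at 174284224 on the minus strand, with 57.9% and 43.3% against 30.9% and 23.5%, and the model described below gave it an adjusted p of 1. Between Nesp and Nespas, 17 further cytosines averaged 45.1% and 38.9% in the Mixed mice and 43.6% and 40.2% in the B6 mice, so the groups overlapped there.

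Over Nespas and Gnasxl, 46 cytosines at 36 of 180 CpGs averaged 54.7% and 54.2% in the Mixed mice, with 49.5% and 50.7% in the B6 mice. Here, too, both Mixed mice were above both B6 mice. Around the Nespas start alone 6 cytosines averaged 47.8%, and around the Gnasxl start 40 cytosines averaged 52.9%. The 4 cytosines just upstream of the Nespas start, from 174295489, were at 63.2% and 61.5% in the Mixed mice and 42.7% and 34.3% in the B6 mice, with median coverages of 14 and 13 against 25.5 and 51.5. The largest strain difference of the region was among them, at 174295512, with 71.4% and 61.5% against 44.4% and 34.0% (adjusted p = 1, logistic model with limma's moderation). The 24 cytosines from 174297978 to 174298310, just after the Gnasxl start, had the highest mean over the mice of the stretches around these starts, 57.3%, with 59.8% and 59.3% against 55.9% and 54.0%. They held both the lowest and the highest cytosine of the region. At 174297978, in a CCGG site, the levels were 52.3% and 35.9% against 22.2% and 36.8%, and at 174298014 they were 80.5% and 84.6% against 89.5% and 94.4%. The median cytosine of the region, at 174298466, was at 34.8% and 47.5% against 52.6% and 65.5%. In the 8 cytosines that begin 566 bp after the start, B6-2 was highest at 61.6%, while the other mice lay between 45.6% and 46.7%. Intermediate levels went on through the rest of the large Gnasxl first exon, which encodes most of the part particular to XL alpha s. The 100 cytosines after the Gnasxl window ran to 174300607, past the end of this exon at 174300217 into the next intron and exon. They averaged 45.4% and 44.6% in the Mixed mice and 39.6% and 41.8% in the B6 mice, and 90 of them were between 20% and 80% in every mouse.

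In the long intron of Gnas between Gnasxl and exon 1A only 5 cytosines were covered in every mouse. Those at 174321920 and 174322077 also lie in an exon of Gm30189, a transcript of the opposite strand. The 5 cytosines averaged 88.7% and 90.7% in the Mixed mice and 85.0% and 87.9% in the B6 mice. The 9 cytosines after exon 1, in the gene body, averaged 82.8% and 83.1% in the Mixed mice and 74.1% and 80.5% in the B6 mice. The means of the 5 intronic cytosines were all above 80%, and those of the 9 after exon 1 ran from 62.7% to 97.1%.

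Over exon 1A, 56 cytosines at 44 of 139 CpGs averaged 37.3% and 55.0% in the Mixed mice, and 34.7% and 42.1% in the B6 mice. The Mixed mice were the second lowest and the highest, so the groups overlapped. The SD over the 4 mice was 9.0 points, the largest of the 4 regions. For comparison, the median SD over 556 start windows of other genes with a mean between 30% and 70% was 3.52 points, with quartiles of 2.41 and 4.97. The mice differed most in the 3′ part of the region, but not only there. The 4 cytosines upstream of the start were at 43.9% and 57.5% in the Mixed mice and 44.6% and 55.8% in the B6 mice. The 20 cytosines from 174327850 to 174328003, just after the start, were at 47.7% and 51.3% against 40.2% and 45.0%. They include the median cytosine of the region, at 174327956 on the minus strand, with 45.8% and 40.9% against 43.5% and 53.5%. The 32 cytosines from 648 to 990 bp after it were at 30% and 56.9% against 30.1% and 38.6%. The lowest cytosine of the region, at 174328718 on the minus strand, was at 0% and 60% in the Mixed mice and 2.33% and 12.1% in the B6 mice, on 14 and 10 against 43 and 33 reads. It is 1 of the last 11 cytosines of this stretch, in which the mice parted. These last 11 cytosines, from 174328583 to 174328739, averaged 8.77% in Mixed-1, 13.5% in B6-1 and 16.7% in B6-2, but 56.4% in Mixed-2. Each of these 11 cytosines had exactly 10 reads in Mixed-2. At 174328736, 6 of 10 reads were methylated in Mixed-2 (95% Wilson interval 31.3% to 83.2%), against 1 of 14 in Mixed-1 (1.27% to 31.5%), 6 of 41 in B6-1 (6.88% to 28.4%) and 4 of 33 in B6-2 (4.82% to 27.3%). Over the 11 cytosines, the Mixed-2 interval lay above those of both B6 mice at 7 and above that of Mixed-1 at 2. At the others it overlapped at least 1 B6 interval, or that of Mixed-1. The intervals cover counting error only, since copies of a fragment made by PCR are not separate molecules. Without these 11 cytosines, which are those with under 20 reads in at least 1 mouse, exon 1A averaged 44.3%, 54.6%, 39.9% and 48.3%, or 46.8% ± 6.25. This SD was still above the upper quartile of the other windows, and the order of the mice remained with Mixed-2 highest and B6-1 lowest. A wide spread was not particular to exon 1A. Among the imprinted starts compared below, the SD was 9.52 points at Airn and 6.97 at Kcnq1ot1, but 2.53 at Peg3.

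Exon 1 was unmethylated in every mouse. Its 167 cytosines at 113 of 203 CpGs averaged 0.138% and 0.111% in the Mixed mice, and 0.205% and 0.0884% in the B6 mice. With coverage summed over these cytosines, 11 of 7733 and 8 of 7653 calls were methylated in the Mixed mice. In the B6 mice 15 of 10277 and 7 of 10004 were. A read counts once for each cytosine it covers. All 167 cytosines were below 20% in each mouse, and the highest mean, at 174330276 on the minus strand, was 2.21%, with 5% and 3.85% in the B6 mice and 0% in each Mixed mouse. The median cytosine was at 0% in all mice. The change from the last cytosine of exon 1A to the first of exon 1 took place across 953 bp without a common cytosine. In 3 mice the level had already fallen below 20% over the last cytosines of exon 1A, and in Mixed-2 it had not.

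**Figure D2:**
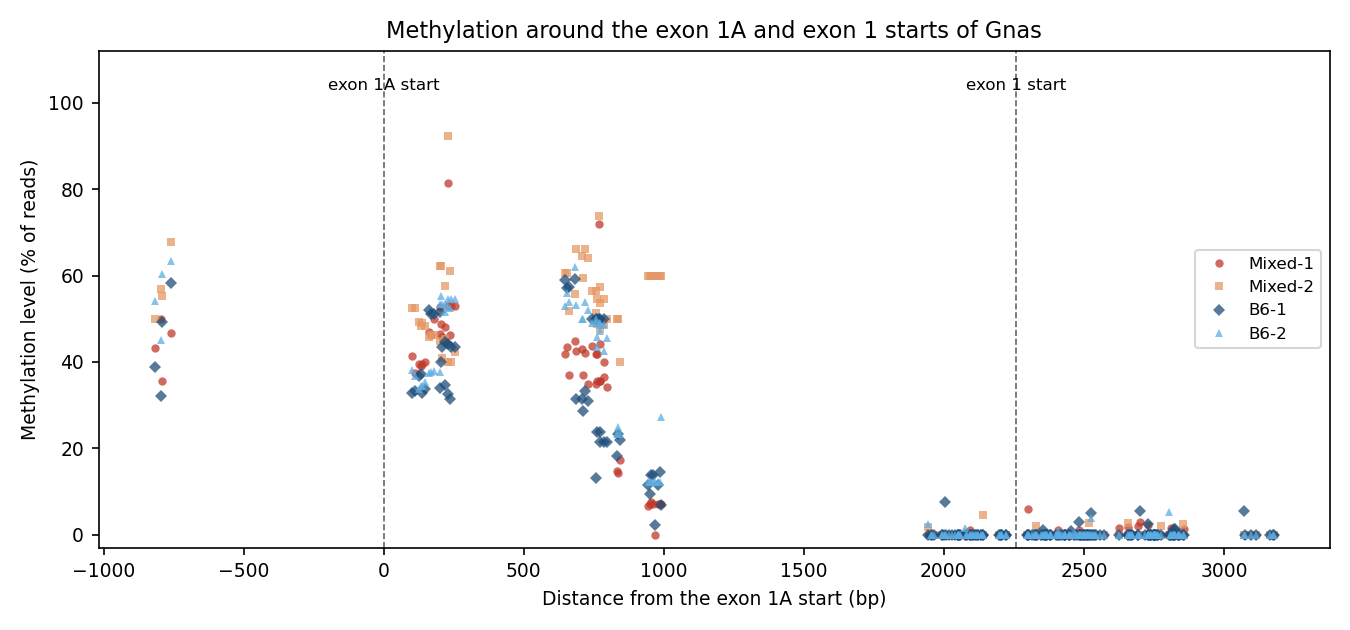
Methylation level (% of reads) of each common cytosine around exon 1A and exon 1 in each mouse, against the distance from the exon 1A start in bp. At the last cytosines of exon 1A, Mixed-2 (squares) stays near 60% on 10 reads a site while the other mice average between 8.77% and 16.7%, and at exon 1 every mouse is near 0.

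Compared within the same mouse, Nespas/Gnasxl was higher than Nesp by 12.3 ± 1.89 points (SD, n = 4), higher in 4 of 4 mice. Exon 1 minus Nesp was -39.9 ± 3.50 points, exon 1 minus Nespas/Gnasxl was -52.1 ± 2.58 points and exon 1 minus exon 1A was -42.1 ± 9.03 points, each negative in 4 of 4 mice. For each of these 4 differences the two-sided exact permutation test over mice gave p = 0.125, the smallest that 4 mice allow, and 0.225 after Benjamini-Hochberg adjustment over 18 comparisons. The limit is that of the exact test, and each of these differences was larger than its SD between mice. With windows of 2000 bp, Nespas/Gnasxl minus Nesp was 5.89 points. Exon 1A minus Nespas/Gnasxl was -9.99 ± 8.07 points and negative in 3 of 4 mice, which did not pass (exact permutation p = 0.25, adjusted p = 0.375). Exon 1A minus Nesp was 2.29 ± 9.62 points, positive in 2 mice and negative in 2 (exact permutation p = 0.75, adjusted p = 0.9).

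**Figure D3:**
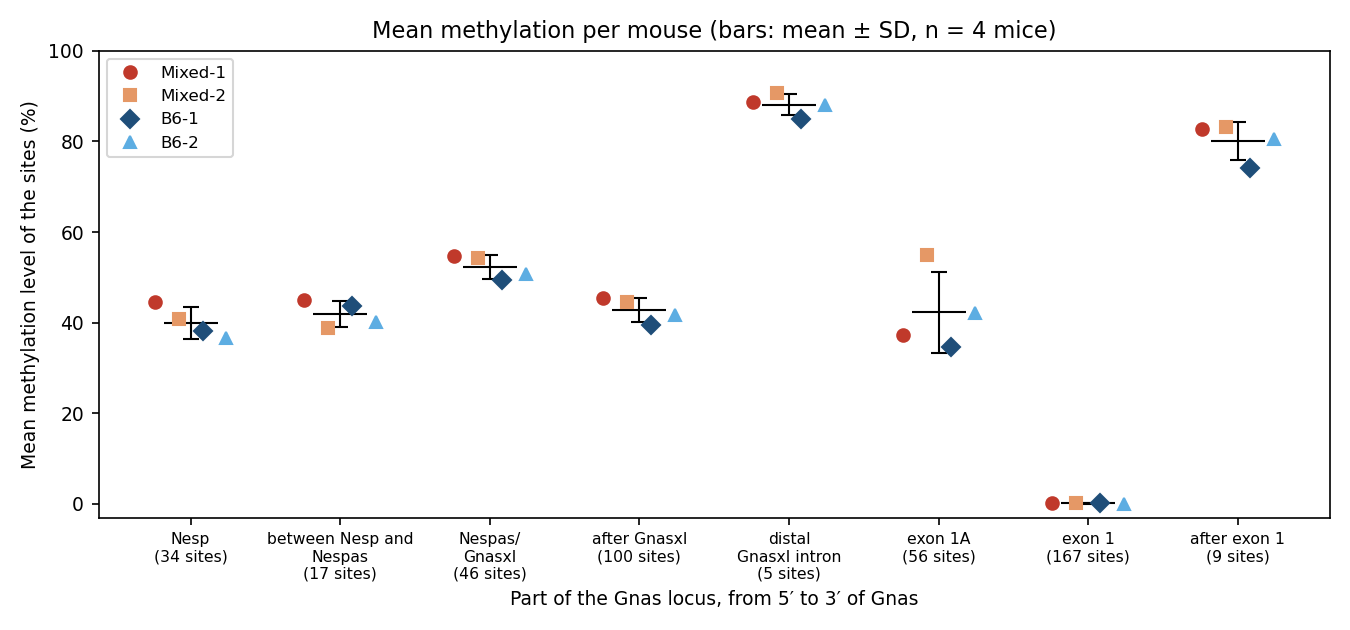
Mean methylation level (%) of the common cytosines of each part of the locus in each mouse, in order along the locus, with the mean ± SD over the 4 mice as bars. Nespas/Gnasxl lies above Nesp in every mouse, exon 1A has the widest spread, exon 1 is near 0, and the distal Gnasxl intron and the part after exon 1 lie above 70%.

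The same windows were set beside the starts of 3 other imprinted transcripts measured in the same mice. The noncoding RNAs Kcnq1ot1 and Airn and the zinc finger gene Peg3 are each known to be methylated at the start on the maternal allele. Kcnq1ot1 averaged 34.4% ± 6.97 over 7 cytosines, Airn 39.9% ± 9.52 over 10 and Peg3 40.7% ± 2.53 over 8. Nespas/Gnasxl was higher than Kcnq1ot1 by 17.9 points, than Airn by 12.3 points and than Peg3 by 11.6 points, each in 4 of 4 mice (exact permutation p = 0.125, adjusted p = 0.225). With windows of 2000 bp these differences were 9.45, 5.05 and 6.73 points, and the one from Airn then had an exact permutation p of 0.25. Nesp minus the other starts was 5.58 ± 6.25, 0.0482 ± 8.06 and -0.731 ± 2.47 points for Kcnq1ot1, Airn and Peg3. For exon 1A these differences were 7.86 ± 13.0, 2.33 ± 8.79 and 1.55 ± 9.66 points. In none of these 6 did all mice go the same way.

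Intermediate start windows were uncommon in the liver as a whole. Among 17757 RefSeq start windows with at least 5 common cytosines, of 14869 genes, 15754 (88.7%) had a mean below 10% and 561 (3.16%) had a mean between 30% and 70%. The median window was at 0.294%. The 4 windows of Nesp, Nespas, Gnasxl and exon 1A were among the 561, and between 5.54% and 6.53% of all windows were more methylated than each of them. The window of exon 1 had 74.9% of all windows above it, all within a range where most values are near 0.

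**Figure D4:**
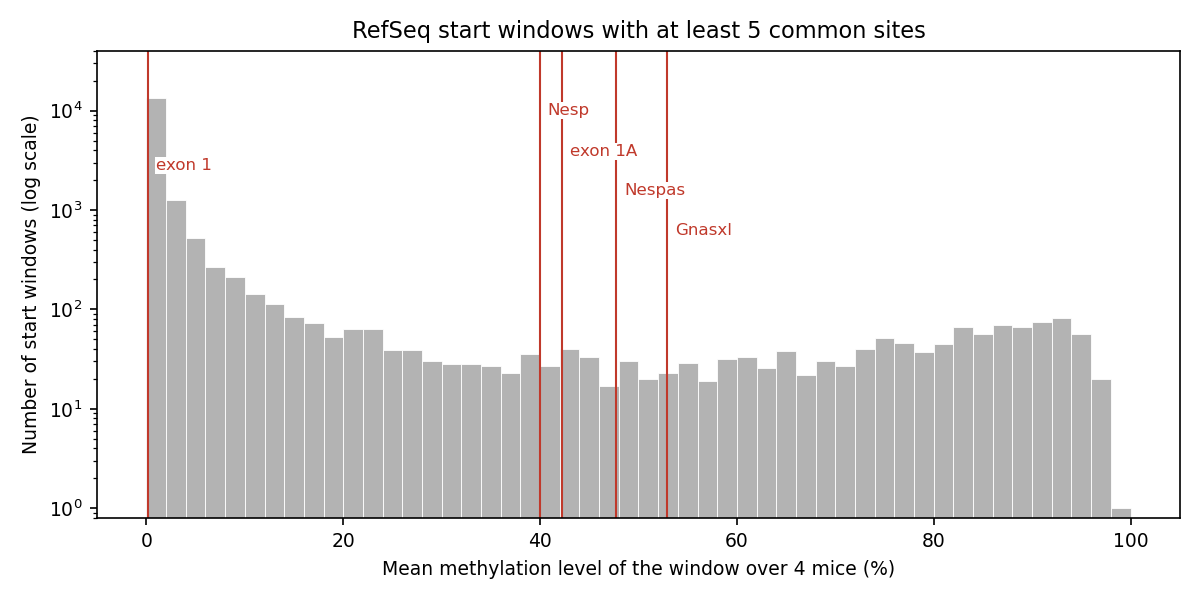
Number of RefSeq start windows (log scale) by their mean methylation level over the 4 mice (%), in bins of 2 points, for the 17757 windows with at least 5 common cytosines. Red lines mark the Gnas starts, with exon 1 in the lowest bin and Nesp, exon 1A, Nespas and Gnasxl from about 40% to 52.9%.

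The strains were compared next, as the labels divide the mice. At this locus B6 minus Mixed was -5.30 points over Nesp and -4.32 points over Nespas/Gnasxl, with no overlap between the groups in either (two-sided exact permutation p = 0.333 each, the smallest that 2 against 2 mice allow). Among 556 start windows of other genes with a mean between 30% and 70%, both Mixed mice were above both B6 mice in 25.5% and both B6 mice above both Mixed mice in 10.8%. Over exon 1A B6 minus Mixed was -7.72 points (exact permutation p = 0.667), and 1.11 points without Mixed-2. Over exon 1 it was 0.0225 points (exact permutation p = 1). With windows of 500 bp the difference over Nespas/Gnasxl was -7.53 points, and with windows of 2000 bp -2.86 points. With all sites of each mouse it was -8.08 points, but this setting compares different cytosines between mice. It added 8 cytosines covered in B6-2 only, all at 0% with a median coverage of 11. They moved B6-2 from 50.7% to 43.2%, while the other mice kept their levels. The exact test cannot pass a threshold of 0.05 with 2 mice a strain, whatever the size of a difference.

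Single cytosines leaned the same way. Of the 252 cytosines with a mean of 20% to 80%, both Mixed mice were above both B6 mice at 72 (28.6%), where 20.2% of all such cytosines in the genome had this order. The opposite order was found at 31 (12.3%), where the genome had 15.1%. The median of B6 minus Mixed was -4.28 points here and -1.06 points over all such cytosines. Chained on 1 strand with gaps of at most 50 bp, the cytosines of the whole locus make up only 64 groups. A group can be longer than 1 read of 50 cycles, so its cytosines are not all on the same reads. Close neighbours do share reads, so the shares of single cytosines count the same molecules several times.

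A logistic model of methylated and unmethylated reads at every common cytosine called none of the 434 cytosines different between strains at an adjusted p under 0.01 and at least 25 points, against 75 cytosines (0.00587%) in the whole genome. An unadjusted p under 0.05 was found at 19 of the 434 (4.38%), and at 2.03% of all cytosines. These shares are not matched for level and cannot be compared directly. At the locus 58.1% of the cytosines had a mean between 20% and 80%, against 11.7% of all common cytosines. With the reads of each strain added up, which leaves out the spread between mice, Fisher's exact test called 3, and limma on logit values called 0. Leaving out either B6 mouse lowered the count in the genome to 0, and leaving out Mixed-1 or Mixed-2 raised it to 219 or 280, while the count at the locus was 0 each time. In these fits 1 strain has a single mouse, which is assumed to vary like the mice of the other strain. The lowest adjusted p of the model at the locus was 0.392, at 174327978 on the plus strand in the intron after exon 1A. This cytosine is among the capitals of the exon 1A sequence above. It was at 81.4% and 92.3% in the Mixed mice and at 32.7% and 52.6% in the B6 mice, a difference of -44.2 points. Fisher's exact test called 1614 of 1276684 cytosines in the whole genome, where intermediate levels were less common than at the locus. Besides 174327978, the cytosines it called at the locus were in the Gnasxl first exon. At 174299611 on the minus strand the levels were 55.3% and 37.8% against 14.3% and 15.6%. At 174299614 on the same strand they were 57.5% and 46.2% against 22.2% and 23.2%. The groups did not overlap at any of the 3, but these were picked by the same values for a strain difference of at least 25 points.

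For 411 cytosines with at least 2 neighbours on the same strand, the median distance from the median of the neighbours was 0.582 points, and 1.84 points for the 244 outside exon 1. Of the 411, 16 were over 10 points away and 5 over 30 points. The 5 were all in the first exon of Gnasxl. The cytosine at 174299992 was at 96.2% in both Mixed mice and at 100% and 97.3% in the B6 mice, where its neighbours were at 53.0% and 37.2% and at 40% and 49.1%. Its methylated reads, 25, 25, 36 and 36, were close in number to the 22.5, 28, 35.5 and 41 of its neighbours. Its unmethylated reads were 1, 1, 0 and 1, against 19.5, 46.5, 51 and 40.5. The shortfall against the neighbours was thus in unmethylated reads. The cytosine at 174327978, the one with the largest strain difference, showed the same in the Mixed mice only. It had 35 and 36 methylated reads there, with 39 and 40 at its neighbours, but 8 and 3 unmethylated reads, with 43 and 25. In the B6 mice it had 17 and 30 methylated and 35 and 27 unmethylated reads, close to the 17.5 and 31 and the 33.5 and 27.5 of its neighbours. The cause of these values was not tested. A level below the neighbours was seen at 174299899 on the minus strand, a cytosine of a CCGG site, which was at 10.8% with neighbours at 48.0%. Its methylated reads were 3, 5, 12 and 5, against 22, 29, 15 and 19 at its neighbours. Its unmethylated reads were 38, 60, 52 and 49, against 18, 35, 21 and 20, so both classes differed. In exon 1, the 27 cytosines of CCGG sites averaged 0.597% and the other 140 averaged 0.0467%.

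Both strands were measured at 116 CpGs. Outside exon 1 there were 62 of these, and the plus strand was higher by 0.842 points on average, with a median absolute difference of 4.24 points and a largest of 33.2 points.

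The letters TGCCGC, which the protein ZFP57 binds when they are methylated to maintain imprints, were counted on both strands of each window. They occur 2 times at Nesp, 5 times at Nespas, 1 time at Gnasxl, 3 times at exon 1A and 2 times at exon 1. Of 31601 start windows of the same length, 42.6% hold at least 1, and 1.22% hold at least the 5 of Nespas, 7.3% at least 3 and 17.5% at least 2. Among the 17757 windows with at least 5 common cytosines these shares were 60.8%, 2.05%, 12.3% and 28.4%. ERRBS measured few of these CpGs. The only one measured at exon 1A was at 39.5% and 49.1% in the Mixed mice and 32.9% and 34.3% in the B6 mice, and the 2 measured at exon 1 averaged 0.306%. None was covered in all mice at the other starts. A match of letters does not show that the protein is bound.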

How the data were processed

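Methylation was measured by ERRBS in 4 mouse livers, grouped by their labels. The authors sequenced single-end reads of 50 cycles. Their methods name BSMAP as the aligner to mm10, whereas the submitters' processing notes name Bismark and SAMtools, without versions. The authors deposited, per mouse and without normalization, the coverage as a count of reads per CpG cytosine and strand, with a minimum of 10, and the percent of these reads that were C or T. Which reads were kept sets the level of each cytosine, and the read filters are not given in the sources used here.

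Methylated reads were computed as percent times coverage. The level of a region was the mean of its site percentages, with SD over mice. Strains were compared by two-sided exact permutation tests, and regions by exact sign-flip permutation tests over mice. The logistic model moderated overdispersion across all common cytosines with limma 3.58.1 (R 4.3.3, with the package data.table at 1.17.8) and adjusted p-values over all of them by Benjamini-Hochberg. It was tested on simulated data, where the recovery required to pass was set lower once the first outcome was known. Python 3.11.15, numpy 2.4.6, scipy 1.17.1, pandas 2.3.3 and matplotlib 3.10.9 were used. The cytosines named were, in each region, those with the lowest, median and highest mean and the largest strain difference, plus called ones. The cytosines off their neighbours and the end of exon 1A were chosen after their values were seen. The locus, the compared imprinted starts and the lists were chosen with earlier results of these data known. Alternatives were a coverage minimum of 20, merged strands, pooled reads, windows of 500 and 2000 bp, all sites of each mouse and C over C plus T. Others were model transcripts, other tests and thresholds, the replicate number as a block and leaving out each mouse. Means over groups of cytosines on 1 strand with gaps of at most 50 bp were added after seeing the data. The paper's RNA sequencing, zebrafish and brain data were not used here.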

Additional observations from a re-analysis of the deposited data

Results flagged for a closer look

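Cytosines of the locus that were covered in only some of the mice take no part in the comparisons above, and they carried methylation too. In Mixed-1, 23 such cytosines averaged 53.1%, in Mixed-2 2 averaged 41.7%, in B6-1 68 averaged 37.7% and in B6-2 65 averaged 22.0%. These are different cytosines in each mouse, so the means are not comparable. In B6-2, 8 of them in the Nespas/Gnasxl region, with a median coverage of 11, were at 0% and 6 in exon 1A averaged 10.1%, whereas 6 in exon 1A of B6-1 averaged 41.8%.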

How the results depend on the processing

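The level of Nespas/Gnasxl fell to 47.5% with windows of 2000 bp, which take in more of the Gnasxl first exon, and Nespas/Gnasxl minus Nesp fell to 5.89 points. B6 minus Mixed over Nespas/Gnasxl ranged over the settings from -8.08 with all sites of each mouse to -2.86 with windows of 2000 bp. The value of -8.08 rests on 8 cytosines at 0% that were covered in B6-2 only. Differences near 0 changed sign. B6 minus Mixed over exon 1 became -0.0116 points at a coverage of at least 20 and -0.0154 with reads pooled. Nesp minus Airn became -0.239 at that coverage, -0.435 with strands merged, -0.0243 with reads pooled and -0.839 with windows of 2000 bp. Nesp minus Peg3 became 0.657 with windows of 500 bp and 0.846 with 2000 bp, exon 1A minus Airn -0.130 with 2000 bp, and exon 1A minus Peg3 -0.303 with strands merged. Leaving out 1 mouse at a time gave -16.6 to 1.11 points for B6 minus Mixed over exon 1A, positive without Mixed-2, and -0.0360 to 0.0810 over exon 1, negative without B6-1. It gave -1.71 to 5.47 for exon 1A minus Nesp, -0.0134 to 6.30 for exon 1A minus Airn and -2.99 to 4.33 for exon 1A minus Peg3, each negative without Mixed-2. It gave -3.94 to 1.69 for Nesp minus Airn, negative without B6-1, and -1.29 to 0.492 for Nesp minus Peg3, positive without B6-2. B6 minus Mixed stayed negative over Nesp (-7.23 to -3.37) and Nespas/Gnasxl (-4.96 to -3.69) when any mouse was left out. As a mean over groups of nearby cytosines on 1 strand it was -6.93 over Nesp and -3.39 over Nespas/Gnasxl.

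The count of 75 strain calls over the genome became 259 at an adjusted p of 0.05 and 10 points, 0 by limma on logit values and 1614 by Fisher's exact test on pooled reads. It ranged from 0, without either B6 mouse, to 280, without Mixed-2, with 219 without Mixed-1, in fits where 1 strain is a single mouse. The count at the locus was 0 throughout except for the 3 of Fisher's exact test. The labels number the mice 1 and 2 within each strain but give no pairing. With the number as a block, 15 cytosines were called in the genome and 0 at the locus. The region differences (-5.30, -4.32, -7.72 and 0.0225 points) keep their values by design, since each number holds 1 mouse of each strain. The exact permutation p with this block was 0.5 over Nesp and over Nespas/Gnasxl. Deviations of mice with the same number correlated at -0.000207 over all common cytosines, 0.114 over the 434 cytosines of the locus and 0.0850 over the 252 intermediate ones, and nothing in the labels ties the numbers together.

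Kcnq1ot1 had no value with windows of 500 bp. Comparisons with other imprinted starts were not run for all sites of each mouse or for model transcripts. With 2 mice a strain, no region difference can pass an exact test. Cytosines with 10 reads, as at the end of exon 1A in Mixed-2, limit that region.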
